A study of Mus musculus with 16 samples.

Results

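The heat shock genes and the cold-inducible genes are a pair of small groups of stress genes that respond to temperature in opposite ways, and their transcripts were followed here in 8 mouse tissues under fed and fasting conditions. The members were chosen by name, as the rows of the count table whose identifiers belong to 8 heat shock genes (Hspa1a, Hspa1b, Hspa8, Hsph1, Hsp90aa1, Dnajb1, Hspb1 and Hspd1) and 2 cold-inducible genes (Cirbp and Rbm3). These are 10 of the 55385 genes in the table, and each of the 10 symbols matched 1 row. Short-read RNA-Seq gave 16 libraries, namely 1 fed and 1 fasting library of each of 8 tissues (liver, kidney, heart, lung, spleen, skeletal muscle and both white and brown adipose). All mice were male C57BL/6, acquired at 12 weeks of age and acclimatized for 10 to 14 days, and no group carried a transgene or a drug. Fed mice had free access to chow and water, whereas fasting mice had their food withdrawn for 24 h, and tissues of both groups were collected at 10 am. Equal parts of tissue from the 3 mice of a group were pooled before RNA extraction, so each library is 1 pool, and no value below carries an error between animals. The 8 tissues of a treatment come from the same 3 mice and are not independent animals.

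Cells exposed to heat or to misfolded proteins release heat shock factor 1, a transcription factor that binds repeated units of the letters GAA and TTC (heat shock elements) in the promoters of chaperone genes and raises their transcription within minutes. Chaperones of the HSP70, HSP90, HSP110, HSP40 and small HSP families bind unfolded protein, whereas HSP60 folds proteins inside mitochondria. Mild cooling acts the other way, raising the transcripts of the RNA-binding proteins CIRBP and RBM3, which run opposite to body temperature through the day. Fasting lowers body temperature in mice and loads the liver with fatty acids, and the comparison asked whether the transcripts of these groups differed between fasting and fed tissues. Body temperature was not analysed here.

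The libraries held between 14245178 (fasting brown adipose) and 36069968 (fasting lung) counts on genes. A level of 3 counts, the floor used here, corresponded to 0.211 CPM (counts scaled to a library total of 1000000 counts on genes) in the smallest and 0.0832 CPM in the largest library. All 10 members had counts in all 16 libraries, and the lowest count was 3, for Hspa1a in fed liver. The marker genes of each labelled tissue were all detected in its own libraries, at summed levels above those of every other tissue. Intervals given below are 95% intervals for counting error only.

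The genomic positions (GRCm38, as in the deposited table) show how the members relate. Hspa1a (ENSMUSG00000091971.3, chr17:34969190-34972156) and Hspa1b (ENSMUSG00000090877.3, chr17:34956436-34959238) lie beside each other on the minus strand. The others are scattered. Hspa8 (ENSMUSG00000015656.17) is at chr9:40800984-40810087, Hsph1 (ENSMUSG00000029657.15) at chr5:149614287-149636376, Hsp90aa1 (ENSMUSG00000021270.13) at chr12:110690605-110702728 and Dnajb1 (ENSMUSG00000005483.10) at chr8:83608193-83612653. Hspb1 (ENSMUSG00000004951.10) is at chr5:135887919-135889563, Hspd1 (ENSMUSG00000025980.14) at chr1:55077835-55088243, Cirbp (ENSMUSG00000045193.13) at chr10:80165985-80172786 and Rbm3 (ENSMUSG00000031167.16) at chrX:8138975-8145880. The values are sums over the exons of each gene.

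Hspa1a and Hspa1b encode the heat-inducible HSP70 proteins, and their sequences are shown first because many stretches of a read length are the same in both. Their coding sequences differed at 8 aligned bases and by 3 bases of gap (99.584% identity over the aligned bases). Over the 250 bases before the annotated start (RefSeq, GRCm38.p6), the copies differed at 3 positions, C44T, T47C and T249G, with the base of Hspa1a first and positions counted from 1 at the 5′ end of the printed sequence. The capitals mark the letters GAANNTTC, a pair of heat shock element units, 104 bases before the start, and GGCGGGGA, the reverse complement of TCCCCGCC, at 137 bases before it.
Hspa1a (chr17:34972157-34972406, minus strand): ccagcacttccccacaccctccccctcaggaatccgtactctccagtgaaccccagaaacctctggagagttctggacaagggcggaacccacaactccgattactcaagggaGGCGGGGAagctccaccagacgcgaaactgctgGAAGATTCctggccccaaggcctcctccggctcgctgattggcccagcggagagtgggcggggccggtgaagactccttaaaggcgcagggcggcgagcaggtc
Hspa1b (chr17:34959239-34959488, minus strand): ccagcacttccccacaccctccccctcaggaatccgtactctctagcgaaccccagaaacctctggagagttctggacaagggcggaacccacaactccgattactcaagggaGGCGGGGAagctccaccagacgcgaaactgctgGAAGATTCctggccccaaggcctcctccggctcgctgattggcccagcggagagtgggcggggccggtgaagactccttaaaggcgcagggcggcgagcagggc

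The same letters were sought in the promoters of the other members, to show which of the genes share them. A promoter entry was found for 7 of the 10 members (11 entries, each from 250 bases before to 50 bases after a start), and none for Hspa8, Hsp90aa1 and Rbm3. GAANNTTC or TTCNNGAA, which both read the same on either strand, occurred in an entry of 5 members, namely Hspa1a, Hspa1b, Hsph1, Hspb1 and Hspd1. Of all 32851 promoters of 300 bases, 7.86% held GAANNTTC, 8.52% held TTCNNGAA and 15.1% held either. Of the members with an entry, Dnajb1 and Cirbp held neither. In Hspd1 and Hsph1 the letters overlapped by a unit to give at least 3 units in a row, an arrangement found in 0.603% of all promoters. In Hsph1 this lay after the start. Capitals in the following sequences mark these letters before the start.
Hsph1, first start (chr5:149636337-149636586, minus strand): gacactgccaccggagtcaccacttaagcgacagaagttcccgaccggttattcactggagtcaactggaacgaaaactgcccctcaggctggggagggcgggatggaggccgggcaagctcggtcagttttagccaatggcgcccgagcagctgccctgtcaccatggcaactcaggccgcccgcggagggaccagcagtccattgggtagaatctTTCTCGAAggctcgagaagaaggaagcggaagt
Hspb1 (chr5:135887669-135887918, plus strand): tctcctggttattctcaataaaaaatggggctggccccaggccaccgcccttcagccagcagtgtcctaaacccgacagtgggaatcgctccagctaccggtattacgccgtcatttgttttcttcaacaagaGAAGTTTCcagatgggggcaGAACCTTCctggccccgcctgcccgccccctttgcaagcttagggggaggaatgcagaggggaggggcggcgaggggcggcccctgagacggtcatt
Hspd1, second start (chr1:55087933-55088182, minus strand): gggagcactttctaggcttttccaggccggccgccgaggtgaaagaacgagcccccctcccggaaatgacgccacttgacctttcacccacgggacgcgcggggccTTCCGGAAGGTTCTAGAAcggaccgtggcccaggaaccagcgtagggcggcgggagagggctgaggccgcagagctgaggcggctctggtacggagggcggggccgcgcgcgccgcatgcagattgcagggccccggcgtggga

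The other motif, TCCCCGCC, is known as the mild-cold response element of Cirbp. It was found on either strand in 5.38% of all promoters. It occurred at the far 5′ end of the first Cirbp entry, 247 bases before the start. On the reverse strand it occurred in Hspa1a, Hspa1b and the second entry of Dnajb1, so it was not restricted to the cold-inducible gene. In Dnajb1 it lay after the second start, which itself lies inside the gene. A match of letters is a description of the window and not evidence of binding.
Cirbp, first start (chr10:80167589-80167838, plus strand): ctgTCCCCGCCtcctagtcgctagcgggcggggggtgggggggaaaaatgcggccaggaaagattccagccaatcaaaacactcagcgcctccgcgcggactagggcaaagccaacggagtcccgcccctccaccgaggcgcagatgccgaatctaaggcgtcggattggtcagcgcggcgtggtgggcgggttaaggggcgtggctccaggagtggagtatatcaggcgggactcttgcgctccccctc

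Levels were first compared between the genes per kilobase of gene length, as RPKM (CPM divided by the deposited gene length in kilobases). Hspa8, the constitutive HSP70 of the cytosol, had the highest median level over the 16 libraries, at 189 RPKM. The median level was 96.9 RPKM for Hspd1 (the mitochondrial HSP60), 53.9 for Hsp90aa1 (the inducible form of cytosolic HSP90) and 41.8 for Hspb1 (the small heat shock protein HSP27, also called HSP25 in mice). It was 10.5 RPKM for Dnajb1 (an HSP40 that hands clients to HSP70) and 6.496 RPKM for Hsph1 (an HSP110 that exchanges the nucleotide of HSP70). The inducible HSP70 genes were lowest, with medians of 2.02 RPKM for Hspa1b and 1.14 RPKM for Hspa1a. Both cold-inducible genes lay between these groups, with median levels of 16.4 RPKM for Cirbp and 14.6 RPKM for Rbm3.

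Each gene had its own order of tissues, given here in CPM with the fed and the fasting library of a tissue as its range. Hspa8 was highest in kidney, at 1549.7 CPM (fed) and 1981 CPM (fasting), above the range of every other tissue except liver. Its liver range ran from 545 to 1744 CPM and overlapped those of all tissues. Hspb1 was highest in heart (126 to 198 CPM) and then in muscle (64.6 to 89.5 CPM), and lowest in spleen (3.92 to 6.00 CPM). The ranges of Hspb1 in neighbouring tissues overlapped only between white and brown adipose. Hspd1 was highest in brown adipose (542 to 687 CPM) and kidney (529 to 549 CPM), whose ranges were the only neighbours in its order to overlap, and lowest in lung (70.5 to 84.4 CPM). Hsp90aa1 was highest in kidney (299.96 to 407 CPM) and lung (273 to 332 CPM), again overlapping, and lowest in muscle (29.3 to 39.1 CPM).

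Dnajb1 was highest in spleen, at 50.4 to 54.8 CPM, and lowest in muscle, at 7.08 to 7.60 CPM, both apart from their neighbours in the order. Hsph1 was highest in kidney (75.7 to 77.0 CPM) within the wide range of liver (52.6 to 84.4 CPM), and lowest in heart (23.2 to 35.8 CPM), whose range overlapped those of both adipose tissues. Rbm3 was highest in spleen, at 261 CPM in fasting and 268 CPM in fed mice, more than in lung (111 to 121 CPM) and white adipose (107 to 108 CPM). By the mean of the 2 libraries it was lowest in liver (32.3 to 50.7 CPM), whose range enclosed that of muscle (44.7 to 46.9 CPM). Cirbp was also highest in spleen (68.3 to 75.6 CPM) and lowest in liver (18.9 to 20.6 CPM), although its ranges overlapped from spleen through lung, white adipose and heart to kidney, and again between liver and brown adipose. By the mean of the 2 libraries both cold-inducible genes were therefore highest in spleen and lowest in liver. By the same mean, 5 of the 8 heat shock genes (Hspa1a, Hspa1b, Hspa8, Hsph1 and Hsp90aa1) were highest in kidney. For Hspa1b the kidney range (13.2 to 19.2 CPM) lay within that of liver (4.60 to 20.1 CPM).

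**Figure D1:**
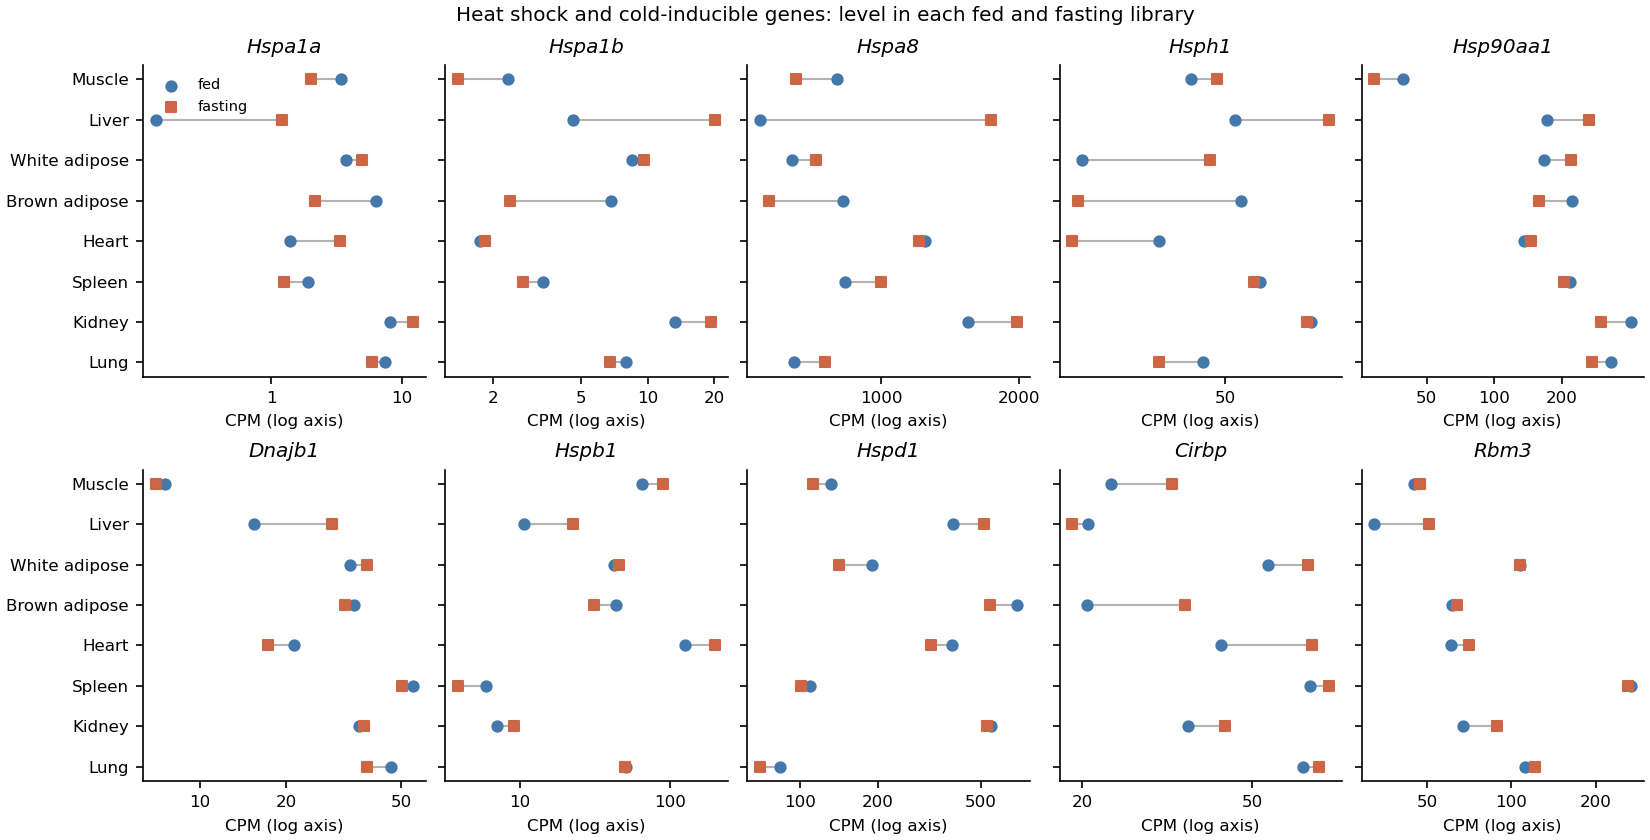
Level of the 10 genes in CPM (log axis, with its own range for each gene) in the fed (circle) and the fasting (square) library of the 8 tissues, joined by a line. In liver the fasting square lies to the right for all 8 heat shock genes, and in brown adipose to the left, for example for Hspa8 at 545 and 1744 CPM in fed and fasting liver and 828 and 568 CPM in fed and fasting brown adipose.

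Liver showed the largest heat shock change. All 8 heat shock genes had a higher level in fasting than in fed liver, with log2 fold changes from 0.40 to 3.11 and a median of 0.996, whereas the median over all genes with at least 1 CPM was -0.13. A gene was called here when its log2 fold change (pseudocount 0.01 CPM) was above 0.5 in size and Fisher's exact test (two-sided) on the counts of the fed and the fasting library gave p under 0.01, a test of those 2 libraries and not of the conditions. By this rule 7 of the 8 were called higher and none lower in fasting liver, where 4.46% of all genes tested were called higher and 9.52% lower. As tissue was sequenced in bulk, more cells with a transcript and more transcript per cell cannot be told apart.

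Among the HSP70 genes, Hspa8 had 545 CPM in fed and 1744 CPM in fasting liver, a 3.20-fold higher level with an interval of 1.65 to 1.71 on the log2 scale around 1.68. Hspa1b had 4.60 CPM (106 counts) and 20.1 CPM (502 counts), a log2 fold change of 2.13. Hspa1a had 0.130 CPM in fed liver, from 3 counts, and 1.20 CPM (30 counts) in fasting liver, an 8.64-fold ratio whose log2 interval ran from 1.52 to 5.56. With a pseudocount of 1 CPM the log2 fold change of Hspa1a in liver was 0.96. The share of Hspa1a in the sum of both copies was 2.75% in fed and 5.64% in fasting liver, and the summed counts gave a log2 fold change of 2.17. In the other tissues Hspa1a made up between 30.6% and 64.6% of the sum, so liver stood apart in how its reads fell between the copies. The share was not tested against the mapping of reads.

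The partners of HSP70 also had higher levels in fasting liver. Dnajb1 had 15.5 CPM in fed and 28.9 CPM in fasting liver (log2 fold change 0.90). Hsph1 had 52.6 and 84.4 CPM (0.68). Hspb1 had 10.6 and 22.7 CPM (1.09), and Hsp90aa1 had 172 and 264 CPM (0.61). Hspd1 was the heat shock gene that was not called, with 390.1 and 514 CPM and a log2 fold change of 0.40. Under TMM factors or DESeq2 size factors, which raised all liver changes by 0.12 on the log2 scale, Hspd1 was called too. Of the cold-inducible genes, Rbm3 was called higher with 32.3 and 50.7 CPM (0.65), whereas Cirbp had 20.6 and 18.9 CPM (-0.12, interval -0.31 to 0.07), a value that was 0.01 under either scaling.

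Marker genes of other kinds were also compared in the liver pair. The 5 hepatocyte markers summed to 95502 CPM in fed and 88662 CPM in fasting liver, with 2 higher and 3 lower. All 5 pancreatic acinar markers were higher in fasting liver and summed to 56.9 and 165 CPM. Of 10 immediate early genes, which handling of tissue can raise, 9 were lower in fasting liver, with sums of 151 and 130.0 CPM. Their part in the heat shock values was not tested. The calls depended on how much pools vary, which these libraries cannot show. Under the exact test of edgeR, with the coefficient of variation set to 0.2, close to the 0.196 estimated in the fit across tissues, 3 of the 7 liver calls were left (Hspa1a, Hspa1b and Hspa8), and with 0.4 only Hspa1a.

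Brown adipose tissue showed the reverse. All 8 heat shock genes had a lower level in fasting than in fed brown adipose, with log2 fold changes from -1.55 to -0.10 and a median of -0.52, beside a median of -0.03 over all genes. Of the 8, 4 were called lower and none higher, where 5.39% of all genes were called higher and 7.58% lower. Hspa1a had 6.38 CPM in fed and 2.18 CPM in fasting brown adipose (log2 fold change -1.55). Hspa1b had 6.80 and 2.39 CPM (-1.51), and the share of Hspa1a in the sum was 48.4% and 47.7%. Hsph1 had 54.1 and 23.9 CPM (-1.18), and Hspa8 had 828 and 568 CPM (-0.54).

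The other 4 heat shock genes were lower by amounts that did not pass the rule. Hsp90aa1 had 222 and 158 CPM (-0.49) and Hspb1 had 43.7 and 31.2 CPM (-0.48). Hspd1 had 687 and 542 CPM (-0.34) and Dnajb1 had 34.3 and 31.9 CPM (-0.10). DESeq2 size factors took Hsp90aa1 and Hspb1 just past the threshold. Cirbp moved against them, with 20.5 CPM in fed and 34.7 CPM in fasting brown adipose (1.69-fold, log2 0.76, interval 0.56 to 0.96), and was called higher. Rbm3 had 61.2 and 63.8 CPM (0.06). All 5 markers of fast skeletal muscle were lower in fasting brown adipose, with sums of 2293 and 1064 CPM and none at 0. The 4 brown adipocyte markers summed to 5591 and 4951 CPM. All 5 lung epithelium markers were higher (55.6 and 79.4 CPM) and all 5 B cell markers lower (18.1 and 10.7 CPM). Of the 10 immediate early genes, 6 were lower in fasting brown adipose, with sums of 250.3 and 198 CPM. The part of these markers in the heat shock values was not tested. With an assumed coefficient of variation of 0.2 the calls of Hspa1a, Hspa1b and Hsph1 were left, and with 0.4 none.

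**Figure D2:**
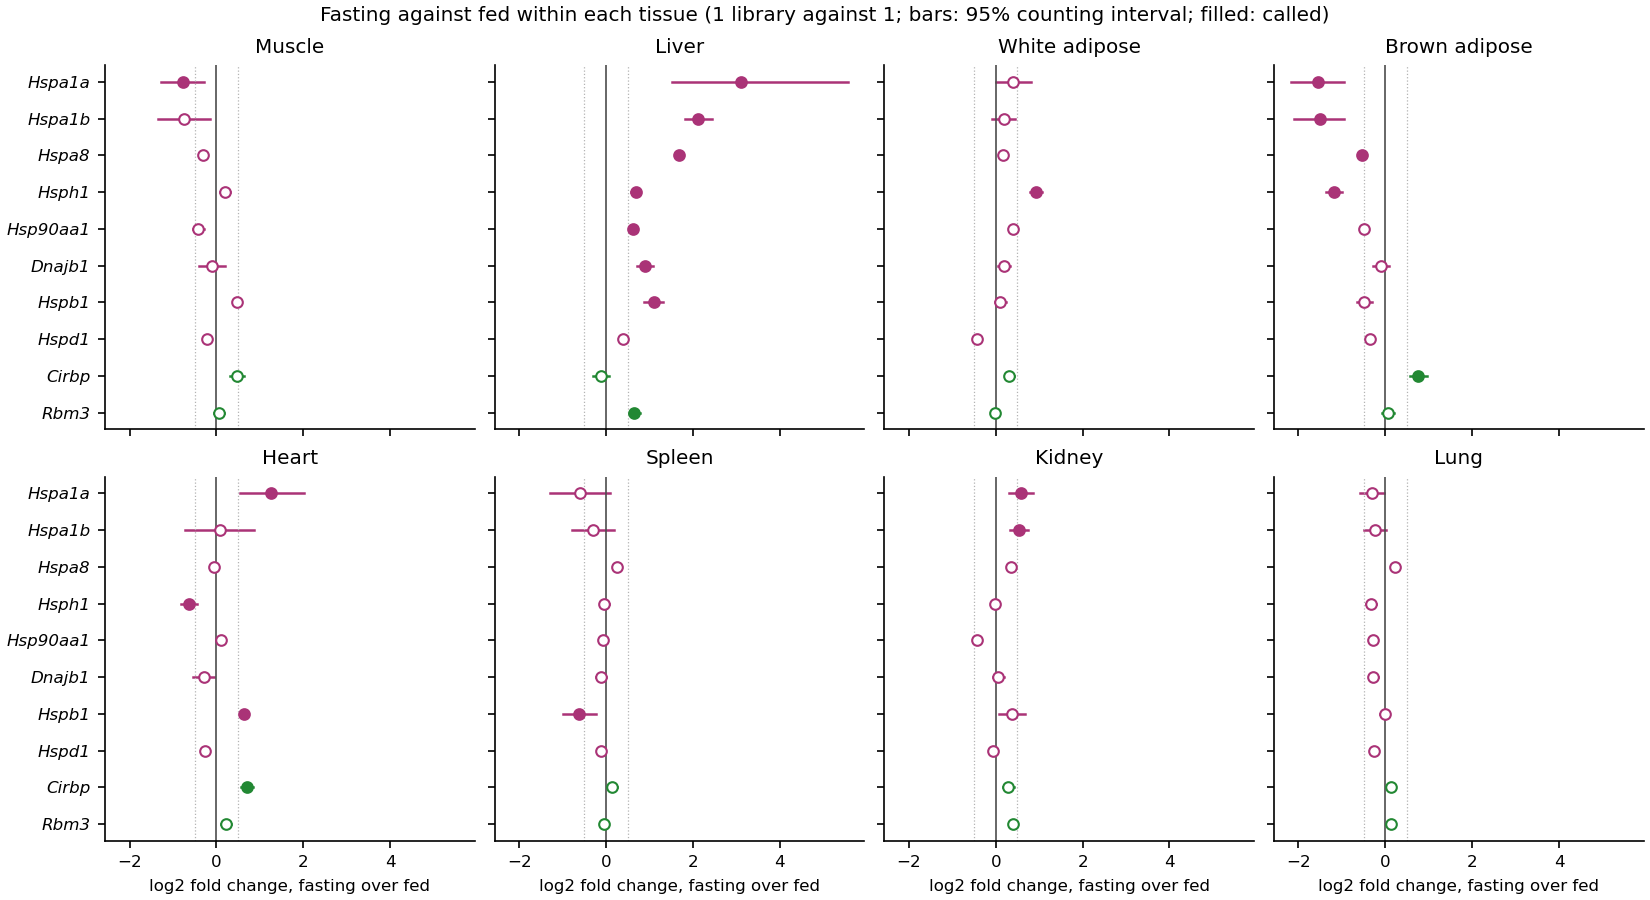
Log2 fold change (fasting over fed) of the 10 genes in each tissue, with 95% counting intervals as bars, filled points for called genes and dotted lines at -0.5 and 0.5. Heat shock genes are purple and cold-inducible genes green. All 8 heat shock points lie to the right of 0 in liver (7 filled) and to the left in brown adipose (4 filled), and Cirbp is filled in brown adipose and heart.

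The other 6 tissues showed smaller and mixed heat shock changes. In white adipose, 7 of the 8 heat shock genes were above 0 with a median log2 fold change of 0.19, beside 0.07 over all genes, and 1 was called higher, where 13.2% of all genes were called higher and 5.84% lower. The called gene was Hsph1, with 24.3 CPM in fed and 46.3 CPM in fasting white adipose (1.90-fold). Hspd1 went the other way with 190.4 and 142 CPM (-0.43). Of the 5 B cell markers, 4 were lower in fasting white adipose, with sums of 346 and 82.7 CPM, and their part was not tested.

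In kidney, both Hspa1a (8.15 and 12.2 CPM, log2 fold change 0.58) and Hspa1b (13.2 and 19.2 CPM, 0.54) were called higher, where 2.77% of all genes were called higher and 3.93% lower. The median of the 8 heat shock genes was 0.21, beside -0.06 over all genes. All 4 brown adipocyte markers were higher in fasting kidney (sums of 1.78 and 8.57 CPM) and all 5 lung epithelium markers were lower (39.8 and 32.7 CPM). Of the 10 immediate early genes, 7 were lower, 2 were called higher and 2 called lower, with sums of 141 and 165 CPM. Their part was not tested. Hsp90aa1 had 407 CPM in fed and 299.96 CPM in fasting kidney (-0.44) and Hspa8 had 1549.7 and 1981 CPM (0.35), neither called.

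Heart held calls in both directions, where 4.33% of all genes were called higher and 5.8% lower. Hspa1a (1.39 and 3.34 CPM, log2 fold change 1.26) and Hspb1 (126 and 198 CPM, 0.65) were called higher, and Hsph1 (35.8 and 23.2 CPM, -0.63) was called lower. Hspa1b did not follow its copy, with 1.74 and 1.84 CPM from 30 and 28 counts. The 8 genes had a median of 0.01, beside -0.07 over all genes. Of the 10 immediate early genes, 7 were higher in fasting heart, with sums of 223 and 299.8 CPM. All 5 hepatocyte markers (28.7 and 87.0 CPM) and all 5 lung epithelium markers (47.2 and 68.2 CPM) were higher there too. The part of these was not tested.

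In muscle, 6 of the 8 were below 0 with a median of -0.26, beside -0.14 over all genes, and only Hspa1a was called (lower, 3.45 and 2.004 CPM, log2 fold change -0.78), where 4.42% of all genes were called higher and 9.39% lower. Its p of 0.00139 by Fisher's exact test was the largest among all calls of the members. Hspb1 had 64.6 CPM in fed and 89.5 CPM in fasting muscle (0.47), which TMM or DESeq2 scaling took past the threshold. Of the 5 adipocyte markers, 4 were lower in fasting muscle and all 4 were called, with sums over the 5 of 197 and 172 CPM. All 5 hepatocyte (115 and 85.3 CPM), all 5 B cell (48.4 and 37.9 CPM) and all 5 erythroid markers (138 and 108 CPM) were lower too. Of the 10 immediate early genes, 4 were called higher and 4 lower, with sums of 164 and 224 CPM. Their part was not tested.

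In spleen, 7 of the 8 were below 0 with a median of -0.12, beside -0.02 over all genes, and only Hspb1 was called (lower, 6.00 and 3.92 CPM, -0.62), where 2.31% of all genes were called higher and 1.62% lower. That call was lost when p was adjusted over all genes tested (0.0106, against 0.01). All 5 erythroid markers were higher in fasting spleen, with sums of 3814 and 9233 CPM, and all 5 pancreatic acinar markers were lower, with sums of 361 and 0.575 CPM. Their part was not tested.

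In lung, 7 of the 8 were below 0 with a median of -0.27, beside -0.09 over all genes, and none was called, where 2.68% of all genes were called higher and 6.49% lower. Hsp90aa1, for example, had 332 CPM in fed and 273 CPM in fasting lung (-0.28). All 5 cardiomyocyte markers (sums of 968 and 483 CPM) and all 5 B cell markers (343 and 177 CPM) were lower in fasting lung. Of the 10 immediate early genes, 8 were lower there and 7 of them were called, with sums of 1089 and 897 CPM. Their part was not tested.

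Across the 64 comparisons of a heat shock gene in a tissue, 12 were called higher and 7 lower in fasting, and 28 were above and 36 below 0. By tissue, between 2.31% and 13.2% of all genes were called higher and between 1.62% and 9.52% lower. Liver gave 7 of the 12, so without liver 5 of 56 were called higher and 7 lower, with 20 above and 36 below 0. Under TMM or DESeq2 scaling 5 of these 64 values, all close to 0 and none called, changed sign (Hspa8 in heart, Hsph1 and Hspd1 in kidney, Hspb1 in white adipose and in lung). With the counts of Hspa1a and Hspa1b summed to 1 gene, 10 comparisons were called higher and 6 lower. Hspd1 was below 0 in 7 of 8 tissues (6 of 8 under TMM or DESeq2 scaling) with liver above. It was called in none by total counts, whereas both scalings called it higher in liver and lower in white adipose (TMM -0.53, DESeq2 -0.54). Counts were not stated to use strand. Hspe1, the HSP10 partner of Hspd1 whose gene overlaps it by 112 exon bases on the opposite strand, is not a member and was named after its values were seen. It was likewise higher in fasting only in liver (73.8 and 97.8 CPM), and was lower in brown adipose (144 and 106 CPM) and in lung (26.2 and 18.1 CPM).

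Cirbp was measured at 23.3 CPM in fed and 32.4 CPM in fasting muscle, 20.6 and 18.9 CPM in liver, 54.3 and 67.4 CPM in white adipose and 20.5 and 34.7 CPM in brown adipose. It had 42.2 and 69.1 CPM in heart, 68.3 and 75.6 CPM in spleen, 35.2 and 43.1 CPM in kidney and 65.5 and 71.7 CPM in lung. Its level was thus higher in fasting in 7 of 8 tissues, with liver as the exception (8 of 8 under TMM or DESeq2 scaling, where liver was at 0.01). It was called in brown adipose (log2 fold change 0.76) and heart (0.71), and the values of the other 5 tissues above 0 ran from 0.13 in lung to 0.47 in muscle. Both scalings also called it in muscle, at 0.55.

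Rbm3 had 44.7 CPM in fed and 46.9 CPM in fasting muscle, 32.3 and 50.7 CPM in liver, 108 and 107 CPM in white adipose and 61.2 and 63.8 CPM in brown adipose. It had 60.6 and 70.5 CPM in heart, 268 and 261 CPM in spleen, 67.1 and 88.6 CPM in kidney and 111 and 121 CPM in lung. Its level was higher in fasting in 6 of 8 tissues and was called in liver alone (0.65). Kidney followed with 0.40, and the values in white adipose (-0.01) and spleen (-0.04) were close to 0. Of the 16 comparisons of a cold-inducible gene, 3 were called higher and none lower, and 13 were above 0. In the tissues of these calls, 4.46% (liver), 5.39% (brown adipose) and 4.33% (heart) of all genes were called higher. None of the 3 was left at either assumed coefficient of variation.

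Changes that the tissues share were tested by 1 fit over the 16 libraries (quasi-likelihood test of edgeR), in which each tissue had its own level and 7 residual degrees of freedom were left. No member passed an adjusted p of 0.05 over the 17296 genes tested, of which 2.31% were called higher and 2.08% lower. The nearest was Cirbp, with a log2 fold change of 0.38 ± 0.094 (SE) and an adjusted p of 0.0515 by edgeR, unadjusted 0.00232. Rbm3 had 0.22 ± 0.093 and an adjusted p of 0.18 (unadjusted 0.0365). These 2 were the only members with an unadjusted p under 0.05, and 23.8% of all genes tested had one, so 2 of 10 is near the background. By DESeq2's Wald test Cirbp passed, with an adjusted p of 0.00891, and Rbm3 did not, at 0.176.

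The call on Cirbp thus depended on the tool and on single tissues. With each tissue left out in turn, its log2 fold change stayed between 0.32 and 0.43, and its adjusted p ran from 0.0454 (without liver) to 0.123 (without brown adipose). By an exact sign-flip permutation test (two-sided) over the 8 tissue changes, Cirbp had p = 0.0156 and Rbm3 p = 0.0313, both unadjusted, where the smallest p the test can give is 0.00781. The fit and this test treat the 8 changes as independent, although they come from the same mice, so neither measures variation between animals. Adjusted over all genes tested, these permutation p-values were 0.1095 and 0.153. A gene at the smallest p had an adjusted p of 0.088 by this test, so no gene could have passed 0.05. The adjusted permutation test therefore could not decide on Cirbp or Rbm3.

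The heat shock genes did not share a direction across tissues. Their fitted log2 fold changes ran from -0.12 ± 0.10 (SE, Hspd1) to 0.25 ± 0.21 (Hspa8) and 0.25 ± 0.18 (Hspb1), with adjusted p-values by edgeR of 0.42 or above. The standard errors were largest for Hspa1a (0.10 ± 0.36) and Hspa1b (0.09 ± 0.33), which had the widest spread between tissues. Without liver the fitted value of Hspa1b was -0.22 and without brown adipose it was 0.30. That of Hspa8 was 0.05 without liver.

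**Figure D3:**
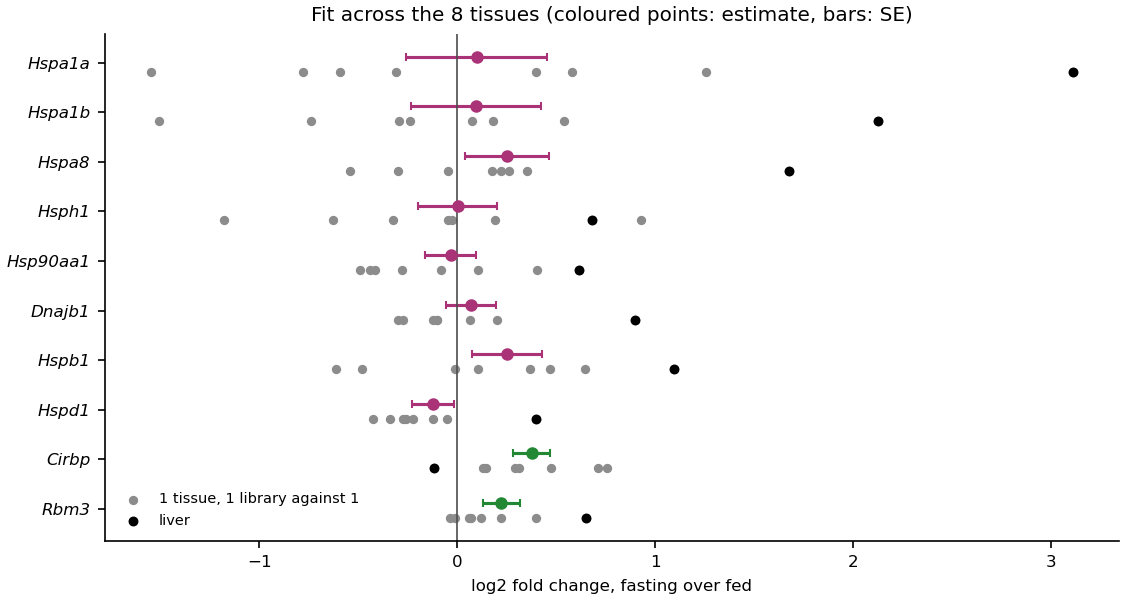
Log2 fold change (fasting over fed) of each gene in the fit of all 16 libraries (coloured point with SE as a bar, TMM scaling), above its values in the 8 tissues from total counts (grey, liver in black). Cirbp (0.38) and Rbm3 (0.22) have the smallest SEs, and the black liver point is the highest of the row for 7 of the 8 heat shock genes and the lowest for Cirbp.

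Whether liver differed from the other tissues was asked by giving each tissue in turn its own fasting term beside that of the other 7, with 6 residual degrees of freedom, a model added after the data were seen. In liver the term was above 0 for all 8 heat shock genes. It was 1.08 ± 0.19 (SE) for Dnajb1, 1.76 ± 0.35 for Hspa8, 2.47 ± 0.59 for Hspa1b and 3.41 ± 1.23 for Hspa1a. The adjusted p by edgeR was 0.0667 for Dnajb1, 0.0961 for Hspa8 and 0.171 for Hspa1b, so no member passed 0.05, while 8 of 10 members had an unadjusted p under 0.05, as had 9.93% of all genes tested. Hsph1 (0.92 ± 0.55) and Cirbp (-0.42 ± 0.27) were the 2 that did not. The share of all genes that passed was 0.295% in liver.

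In brown adipose the term was below 0 for all 8 heat shock genes and above 0 for Cirbp (0.45 ± 0.27, SE), and no member passed, with adjusted p-values by edgeR of 0.740 or above. Hsph1 (-1.32 ± 0.48) was the only member with an unadjusted p under 0.05 there, a threshold that 5.98% of all genes tested passed. Of all genes, 0.00578% passed in brown adipose, 0.052% in muscle and 3.82% in white adipose, and 0% passed in heart, spleen, kidney and lung. No member had an unadjusted p under 0.05 in those 6 tissues. In this fit, with 1 library per tissue and treatment, the liver and brown adipose patterns therefore remain values of single pools that were not shown to differ from the other tissues.

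The heat shock and the cold-inducible genes were then set against each other within each tissue, a difference in which the scaling of the libraries drops out. The median log2 fold change of the 8 heat shock genes lay below the mean of Cirbp and Rbm3 in 6 of 8 tissues. The difference was -0.93 in brown adipose, -0.53 in muscle, -0.45 in heart, -0.39 in lung, -0.18 in spleen and -0.14 in kidney. It was 0.04 in white adipose and 0.73 in liver. The count of 6 was the same with the mean in place of the median and with a pseudocount of 1 CPM.

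Gene by gene, the heat shock change was below that of Cirbp in 46 of 64 pairs and below that of Rbm3 in 43 of 64. All 8 heat shock genes lay below Cirbp in muscle and brown adipose, and none did in liver. In liver 2 of 8 lay below Rbm3. Since the 8 values in a tissue come from the same libraries, these counts are descriptions and carry no test.

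**Figure D4:**
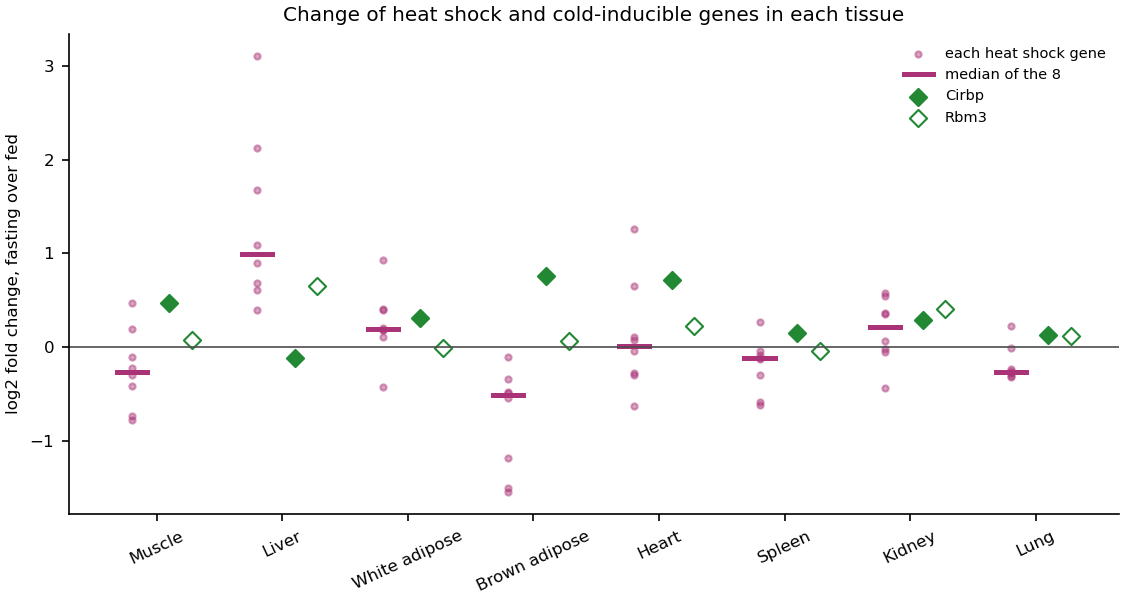
Log2 fold change (fasting over fed) in each tissue for the 8 heat shock genes (small dots, with their median as a bar), Cirbp (filled diamond) and Rbm3 (open diamond). The bar lies at 0.996 in liver, above Cirbp at -0.12, and at -0.52 in brown adipose, below Cirbp at 0.76.

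The similarity of the changes was described by Pearson's r over the 8 tissues, on log2(CPM + 1). The points share the same pools of mice and the same libraries, so r carries no test. All 28 pairs of heat shock genes had r above 0, with a median of 0.68 and the highest value, 0.96, between Hspa1b and Hspa8. Without liver the median was 0.36 and 24 of 28 pairs were above 0. The highest r over the remaining 7 tissues were 0.90 for Hspa1a with Hspa1b and 0.85 for Hspa1b with Hspa8. They were followed by 0.69 for Hspa1a with Hspb1, 0.67 for Hsph1 with Dnajb1 and 0.63 for Hspa1a with Hspa8.

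Cirbp had r below 0 with all 8 heat shock genes (median -0.65), and without liver with 7 of 8 (median -0.29). Its lowest value was with Hspa8, at -0.84 over 8 tissues and -0.81 without liver. Rbm3 had r above 0 with all 8 (median 0.74), and without liver with 5 of 8 (median 0.39). Between the 2 cold-inducible genes r was -0.44, and 0.12 without liver. Over these tissues the 2 cold-inducible genes thus had opposite signs of r with the heat shock genes, on medians over all 8 tissues and over the 7 without liver.

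**Figure D5:**
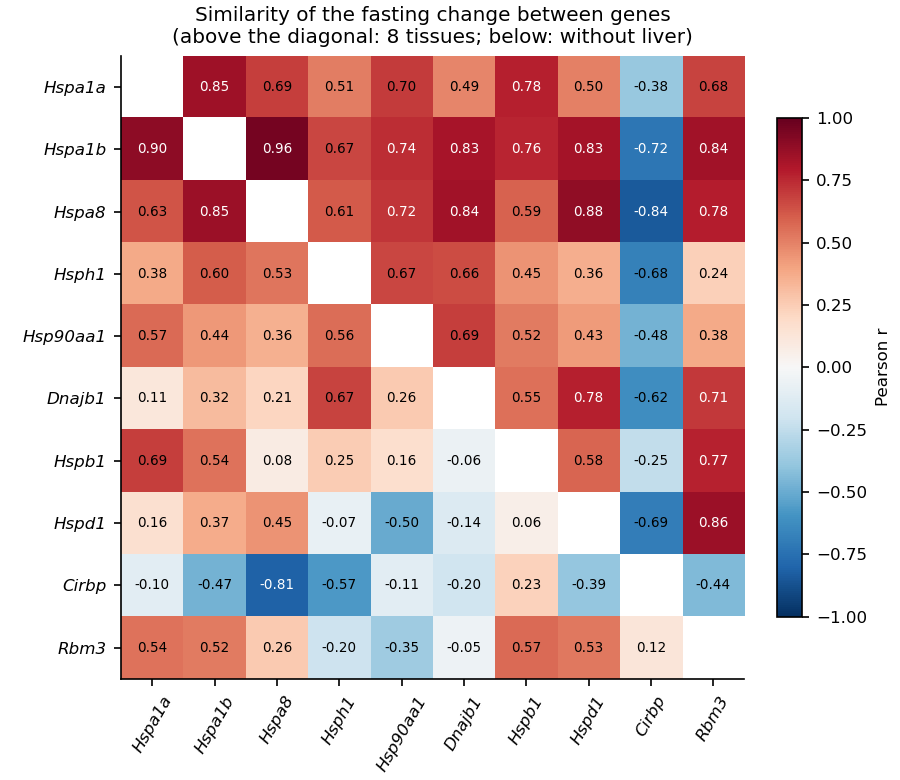
Pearson's r between the fasting changes of each pair of genes, over 8 tissues above the diagonal and over the 7 tissues without liver below it. The heat shock block is above 0 throughout over 8 tissues (median 0.68) and paler without liver (median 0.36), and Cirbp is below 0 with all 8 heat shock genes over 8 tissues and with 7 of 8 without liver.

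The patterns of level over the 16 libraries were compared with those of 13223 genes with at least 5 CPM on average, by Pearson's r of log2(CPM + 1). These 16 points are 2 from each tissue, so r mostly reads the order of tissues. The genes most like Hspb1 were Bag3 (0.94), a co-chaperone of HSP70 that works with small heat shock proteins, and Cdh13 (0.91). Those most like Hspd1 were Aifm1 (0.97) and Mrps34 (0.96), which both encode mitochondrial proteins, and those most like Dnajb1 were Zscan22 (0.97) and Cdk4 (0.97). Those most like Hsp90aa1 were Slc30a1 (0.95) and Pik3c2a (0.94), those most like Hspa1b were C2cd2l (0.93) and Plpp2 (0.90), and those most like Hsph1 were A430005L14Rik (0.82) and Slc16a5 (0.81). For Cirbp they were Nosip (0.94) and Zfp512 (0.93), and for Rbm3 Gm26982 (0.99) and Def6 (0.97). For Hspa8 they were Gm15459 (0.98), which shares sequence with it, and As3mt (0.81). Hspa1a was below 5 CPM and was not ranked.

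A wider list held 50 other chaperones and heat shock factors. In liver 4 of the 50 were called higher and 2 lower, with a median log2 fold change of 0.09, where 4.46% of all genes were called higher and 9.52% lower. The 4 were Hsp90ab1, the constitutive cytosolic HSP90 (695 and 998 CPM), Hspb8 (132 and 240 CPM), Bag3 (22.4 and 42.3 CPM) and Tcp1, a subunit of the CCT chaperonin (113 and 160 CPM). The 2 lower were Hspa13 (57.9 and 37.1 CPM) and the HSP90 co-chaperone Fkbp4 (132 and 92.1 CPM). In brown adipose 4 were called higher and 10 lower, with a median of -0.07, where 5.39% of all genes were called higher and 7.58% lower. The 10 lower included the small heat shock proteins Cryab (27.3 and 8.70 CPM) and Hspb8 (51.2 and 24.5 CPM), Hspa4l, an HSP110 (105 and 55.0 CPM), and Dnaja1, an HSP40 (115 and 62.0 CPM). The 4 higher were Dnajb6, Dnajb9, Dnajc7 and Ppid. Hspb8 was thus called in opposite directions in liver and brown adipose, a difference that was not tested. The HSP40 gene Dnaja4 had 16.4 CPM in fed and 167 CPM in fasting white adipose. These genes were named after their values were seen. Over all tissues 17 of 400 comparisons were called higher and 32 lower, shares within the range of all genes by tissue (2.31% to 13.2% higher and 1.62% to 9.52% lower).

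In the fit across tissues, 49 of the 50 were tested and 1 passed, Dnajb9, an HSP40 of the endoplasmic reticulum, with a log2 fold change of 0.50 ± 0.095 (SE, adjusted p by edgeR 0.0227). None passed downwards, and 17 had an unadjusted p under 0.05, as had 23.8% of all genes tested. Of all genes 2.31% passed upwards and 2.08% downwards, so 1 of 49 is near the background. The adjusted p of Dnajb9 rose to 0.0675 without brown adipose and 0.0526 without lung, whereas the gene also passed by DESeq2's Wald test. By the exact sign-flip permutation test its adjusted p was 0.088. This was the lowest adjusted p that test gave, so no gene could have passed 0.05 by it. The 3 with the highest level per length were Hsp90ab1 (289 RPKM on average), the mitochondrial HSP70 Hspa9 (138 RPKM) and the small heat shock protein Cryab (127 RPKM). Their fitted log2 fold changes were 0.08 ± 0.11, -0.03 ± 0.087 and -0.59 ± 0.17. Cryab missed with an adjusted p by edgeR of 0.0691 and passed with DESeq2's Wald test at 0.0143.

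Of 15 other RNA factors linked to cold, 7 of 120 comparisons were called higher and 1 lower, beside 2.31% to 13.2% of all genes higher and 1.62% to 9.52% lower by tissue. Clk1 and Clk4, kinases of splicing factors, were both called higher in muscle and brown adipose, and Srsf3 was called lower in brown adipose. In the fit, 2 of 15 passed, both upwards, where 2.31% of all genes did. They were Clk1 (0.38 ± 0.085, SE, adjusted p by edgeR 0.0373), which is more active in cooler cells, and the cold-shock domain protein Ybx3 (0.29 ± 0.071, adjusted p 0.0455). Ybx3 lost its call whichever tissue was left out (adjusted p 0.0556 to 0.107), with libraries scaled by their totals alone (0.0542) and without the filter on low counts (0.0911). With each tissue left out in turn, the adjusted p of Clk1 ran from 0.0342 to 0.098, and its call was kept only without liver and without spleen. Clk1 and Ybx3 both passed by DESeq2's Wald test. Ybx1 (126 RPKM) and Srsf5 (71.3 RPKM), which were among those with the highest level, had fitted log2 fold changes of -0.02 ± 0.069 and 0.21 ± 0.069, and neither passed by edgeR. Srsf5 passed by DESeq2's Wald test, with an adjusted p of 0.00708.

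Of the 10 immediate early genes, 13 of 80 comparisons were called higher and 25 lower, beside the same range for all genes (2.31% to 13.2% higher and 1.62% to 9.52% lower). In the fit 1 passed, Fos, at -0.59 ± 0.13 (SE, adjusted p by edgeR 0.0372). It lost this call when muscle, brown adipose, spleen, kidney or lung was left out (adjusted p 0.0610 to 0.0974), and kept it by DESeq2's Wald test. The 2 with the highest mean level, Dusp1 (79.1 CPM) and Jun (76.0 CPM), had -0.09 ± 0.22 and 0.19 ± 0.17 and did not pass. In liver, where the heat shock genes were higher, Dusp1 and Ier2 were called lower and none was called higher.

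Several members share exon sequence with other genes, which bears on what a short read can count. Of the 100-base windows of the longest coding transcript, 63.4% of those of Hspa8 occurred unchanged in another gene on either strand, most of them in Gm15459. The share was 56.5% for Hspa1a and 49.9% for Hspa1b, 47.5% for Hsp90aa1 (most with Gm12346), 42.7% for Hspb1 (with Hsp25-ps1) and 26.9% for Hspd1. It was 8.58% for Rbm3 and 0% for Hsph1, Dnajb1 and Cirbp. How reads with several matches were treated is not given in the sources used here, so the levels of the first group, and the split between Hspa1a and Hspa1b, are uncertain. Of the heat shock genes without shared windows, Hsph1 was called higher in liver and lower in brown adipose, whereas Dnajb1 was called higher in liver and not called in brown adipose (-0.10).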

How the data were processed

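RNA of 8 tissues from fed and fasting mice was measured by strand-specific, paired-end short-read RNA-Seq (100 bases). Per the labels and the methods of the study, the authors used fastp 0.23.2 and FastQC 0.11.8 on the reads, HISAT2 2.2.1.0 for alignment (GRCm38) and featureCounts of Subread 2.0 for counting on GENCODE mouse release 24. The values are raw counts per gene and library as the authors deposited them, beside an other column, gene length. The strand setting, and whether reads or pairs were counted, are not given in the sources used here.

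From the deposited counts, CPM and RPKM were computed with library totals. Symbols came from an older GENCODE annotation of the same build, by identifier, and 241 genes had none. Within tissues, Fisher's exact test (two-sided) compared the 2 libraries of a tissue. A call needed p under 0.01 and a log2 fold change (pseudocount 0.01 CPM) larger than 0.5 either way. Across tissues, edgeR 4.0.16 (R 4.3.3) was used, with the quasi-likelihood test, tissue and treatment as terms, TMM factors, filterByExpr and Benjamini-Hochberg adjustment. In simulated data, 200 genes were raised or lowered 2-fold. The test within tissues recovered 198 to 200 with 61 to 102 false calls. Its simulation held counting error only and no spread between pools, so these false calls give no error rate for pools. The fit, simulated with the spread it had estimated itself, recovered 199 with 10 false calls. Alternatives included DESeq2 1.42.0 and other scalings. Promoters were read from RefSeq (GRCm38.p6). Scripts ran in Python 3.11.15 with scipy 1.17.1.

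The members, gene lists, motifs and tests were chosen with earlier results of these data known. The genes named were all members, those of the other chaperones and cold-linked factors with an adjusted p under 0.05 in the fit (at most 3 a list) and the 3 highest by RPKM (1 of which is not reported here), the 2 genes most like each member, and the 2 immediate early genes with the highest CPM. Fos and all other genes were named after their values were seen.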

Additional observations from a re-analysis of the deposited data

How the results depend on the processing

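No called comparison of a member in a tissue changed direction under an alternative, and 6 of 80 comparisons, none of them called, changed sign under TMM factors or DESeq2 size factors. These scalings raised all liver values by 0.12 and changed all white adipose values by -0.11 or -0.12 on the log2 scale. With a log2 fold change above 1, heat shock comparisons called higher went from 12 to 5 and those called lower from 7 to 3, in liver 4 of 7 were left, and the cold-inducible calls went from 3 to 0. In edgeR's exact test with the coefficient of variation set to 0.2, these counts were 3 higher, 3 lower, 3 in liver and 0 cold-inducible. At 0.4 they were 1, 0, 1 and 0, and brown adipose kept 0 of 4, because a larger assumed spread leaves fewer calls. In the fit across tissues, 0 members had an adjusted p under 0.05 by edgeR, 2 had an unadjusted p under 0.05, and DESeq2 called 1 (Cirbp). Leaving out each tissue gave 0 to 1 member, the 1 being Cirbp without liver. Depth limited Hspa1a most, with 3 counts in fed liver.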
